A study of Danio rerio with 18 samples.

Results

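The Hox cluster genes were followed in bulk RNA sequencing of the regenerating caudal fin of zebrafish. Members were chosen by symbol alone: the table's 32520 gene IDs were matched to gene symbols, and every symbol made of hox, a cluster letter A to D and a number was taken, with case ignored. This gave 48 IDs. No measured value entered this rule, though earlier results of these data were known when the members were chosen. The study compared fish of the outbred Ekkwill (EK) strain (WT) with homozygous knockouts of s1 (KO), a DNA element that the labels call a regeneration-associated silencer, made in the same EK background. WT fish were brothers and sisters of the KO fish, both genotypes were about 4 to 8 months old, and both were anesthetized. Fins were cut midway along their length and sampled at 0 days post amputation (dpa; uninjured fin, freshly cut), 1 dpa and 4 dpa. Each of the 6 groups holds 3 libraries, each from a separate pool of 10 fish. Which piece of the fin the 1 and 4 dpa clips held, stump or new tissue, is not given in the sources used here, nor is the number of knockout lines, and fish were not measured singly. The labelled aim was to find genes higher in the knockout at each time.

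Hox genes encode homeodomain transcription factors that give cells their position along the body axis and along the fin or limb. They lie in clusters, in which the order of the genes follows the order of their domains, so that low-numbered paralogue groups act anteriorly or near the body and high-numbered ones posteriorly or distally. A genome duplication in the fish lineage left zebrafish with a and b copies of the A, B and C clusters, whereas only 1 D cluster kept Hox genes. In zebrafish, Hox genes of group 13 from the A and D clusters are needed for the bony fin rays, and hoxc13 genes are expressed in the regenerating caudal fin.

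Of the 48 members, 17 could be tested, 5 were detected below the filter, and 26 were listed at 0 in all 18 libraries. Testing required 3 or more libraries with a signal of 10 or above. The signal is the deposited normalised read count, which behaves as reads divided by the size factor of the library. By cluster letter, members listed at 0 were 11 of 11 in A, 5 of 15 in B, 9 of 15 in C and 1 of 7 in D. In groups 9 to 13 they were 11 of 23, and in groups 1 to 8 they were 15 of 25. The members of cluster A at 0 included hoxa13a and hoxa13b, the A-cluster genes of the group needed for fin rays.

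**Figure D1:**
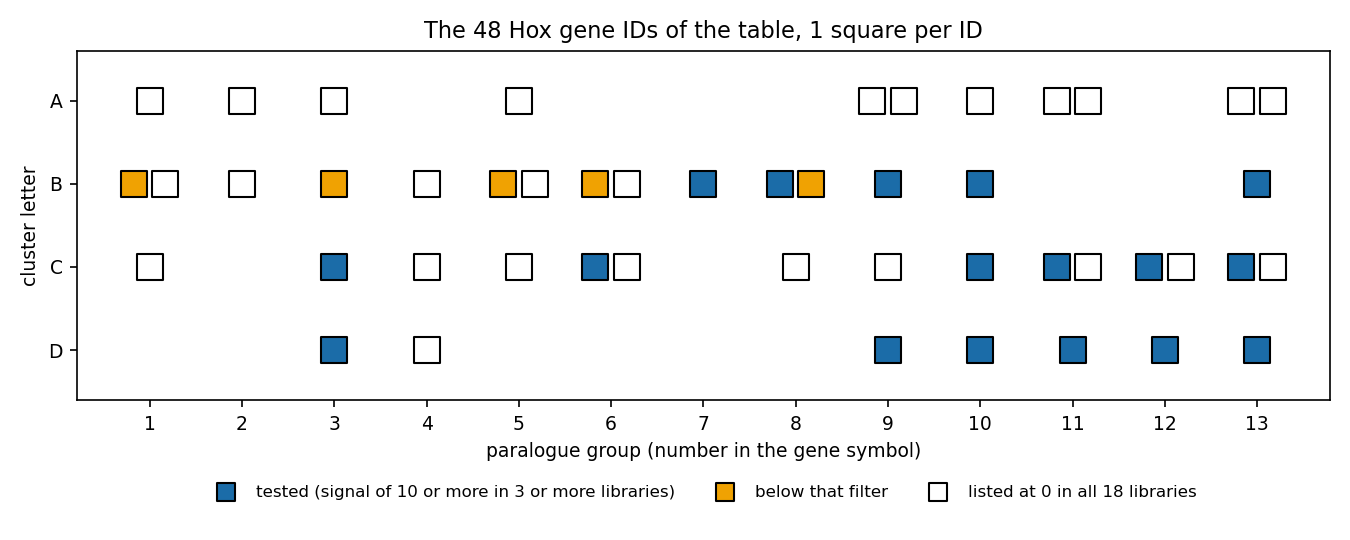
Squares stand for the 48 Hox gene IDs, placed by cluster letter (vertical axis) and paralogue group (horizontal axis); blue squares were tested, orange ones were detected below the filter and white ones were listed at 0 in all 18 libraries. All 11 squares of cluster A are white, and 6 of 7 in cluster D are blue.

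A value of 0 in this table cannot be read as absence of the transcript. Listed at 0 throughout were 54.2% of Hox members, compared with 17.4% of all IDs and with 12.7% of 102 IDs with symbols of other homeobox and related patterning families. Of 91 IDs with ribosomal protein symbols, which every cell uses, 6 were also at 0, among them RPL9 and RPS12. Hox genes are packed closely and many overlap a neighbour. Gene neighbours and overlaps were taken from RefSeq's GRCz12tu annotation, a different assembly from the table's. There 23 of 38 placed members overlap another gene, and 17 of the 23 (73.9%) were at 0. Of the 15 that overlap none, 3 (20%) were at 0, namely hoxb1a, hoxb2a and hoxc11a. Over all protein-coding genes with 1 ID and a symbol equal to the RefSeq symbol, 432 of 3813 overlapping genes (11.3%) and 404 of 5627 others (7.18%) were at 0. This set was chosen more narrowly than the placed members, of which 15 had the exact symbol and 23 were named as the only gene left. Its percentages are therefore not directly comparable with those of the members. Every placed hoxa member overlaps a transcript annotated to evx1 or to LOC101886298, and both hoxb4a and hoxb6a overlap hoxb3a. How the authors counted reads on overlapping genes is not given in the sources used here, and its part in these zeros was not tested.

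The table's symbols often give the human name, which does not separate a and b copies. The exact zebrafish symbol was known for 15 members. A further 23 were named as the only RefSeq gene left for their letter and number, and 10 stayed unresolved between 2 copies (HOXA11, HOXB5, HOXC6, HOXC12 and HOXC13, with 2 IDs each). In each of the last 4 pairs 1 ID was listed at 0, and both HOXA11 IDs were. HOXC6 below is ENSDARG00000101954, HOXC12 is ENSDARG00000103133 and HOXC13 is ENSDARG00000113877. The second HOXC13 ID, ENSDARG00000070353, was at 0 in all libraries. Which copy each of these values belongs to is therefore uncertain. Sequences of the copies were not compared, so whether reads of 1 copy fell on the other ID was not tested.

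The libraries held 58585073 to 155121375 reads in genes, and 10.5 M to 75.5 M outside the 5 genes with the most reads in the whole table. Those 5 genes took 32.3% to 90.5% of reads in 14 libraries and 2.71% to 10.9% in the other 4, which are replicates 2 and 3 of WT at 0 dpa, replicate 2 of KO at 0 dpa and replicate 1 of KO at 1 dpa. These 4 low-share libraries stood high for Hox genes, as described below, and calls that rest on them are given with and without them. Without them WT at 0 dpa holds 1 library. Calls and p-values of WT against 0 dpa in that setting therefore borrow the spread of the other groups. The share also differed by time, from 2.71% to 57.9% at 0 dpa to 79.0% to 90.5% at 4 dpa. In WT it was 3.61% to 34.3% at 0 dpa and 58.3% to 84.3% at 1 dpa. Fits with the share as a covariate therefore cannot fully separate share from time. The percent of all genes called was taken only in the main fit, with all 18 libraries and no covariate. Counts of members under other settings, here and below, thus have no such percent beside them. At 4 dpa the share was 87.5% to 90.5% in WT and 79.0% to 82.9% in KO. Reads outside the 5 genes were 10.5 M to 10.9 M in WT and 16.4 M to 19.7 M in KO there. Share and depth thus go with genotype at 4 dpa. A single read was worth a signal of 0.391 at the deepest scaling (WT at 0 dpa, replicate 1). It was worth 2.49 at the shallowest (WT at 4 dpa, replicate 2). The fin label was set against marker genes. The epidermal keratin krt4 had group means of 38449 to 213183, and of 4 gonad or gut markers DDX4 reached at most 9.01 and cdx1b 14.8, while DAZL reached 30.5. The gut gene FABP2 had 43.8 to 142 in WT and 29.6 to 163 in KO at 0 dpa, and 29.97 or less at the later times. The summed signal of the 4 was highest in the low-share libraries of their groups. It reached 183 and 125 in WT and 200.1 in KO at 0 dpa, and 65.6 in KO at 1 dpa. The same held for summed markers of epidermis, osteoblasts, nerve, leukocytes and erythrocytes. For osteoblasts, the low-share WT libraries at 0 dpa had 32707 and 30049, and the other had 18966. It did not hold in every group for markers of skeletal muscle, actinotrichia or fibroblasts. The part of these signals in the Hox values was not tested.

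The 17 tested members were hoxb7a, hoxb8a, hoxb9a, hoxb10a and hoxb13a of cluster B, hoxc3a, HOXC6, hoxc10a, hoxc11b, HOXC12 and HOXC13 of cluster C, and hoxd3a, hoxd9a, hoxd10a, hoxd11a, hoxd12a and hoxd13a of cluster D. Reads behind them, summed over the 18 libraries, ranged from 170 for HOXC6 to 62600 for hoxc10a, with 25168 for HOXC13, 5676 for hoxc3a and 2544 or fewer for each of the others. Below the filter were hoxb3a, with reads in all 18 libraries and a highest signal of 11.8, and hoxb1b, with reads in 12 libraries and a highest signal of 7.03. The HOXB5 ID ENSDARG00000054030 had 13 reads in 6 libraries, hoxb8b had 10 reads in 4 and hoxb6b had 7 reads in 3. Posterior members of groups 9 to 13 made up 12 of the 17 tested members. HOXC6 reached a signal of 10 in 4 libraries only, all of them at 0 dpa. The filter thus favoured its falls from 0 dpa, which are counted below.

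Over the first day, 9 of 17 tested Hox members fell in WT fins, being lower at 1 dpa than at 0 dpa, and none was higher. The count was 4 without the low-share libraries, 3 with the share of the 5 dominant genes as a covariate and 5 without replicate 2 of WT at 0 dpa. The calls are limma tests on log2(signal + 1), two-sided, with Benjamini-Hochberg adjusted p under 0.05 over 22779 genes, of which 21.1% were called lower and 19.1% higher in the same comparison. The lower members were 4 of 5 in cluster B (hoxb7a, hoxb8a, hoxb10a and hoxb13a), 4 of 6 in cluster C (hoxc3a, hoxc10a, HOXC12 and HOXC13) and 1 of 6 in cluster D (hoxd10a). The median log2 change of the 17 was -1.12, compared with -0.03 over all genes tested. Without the low-share libraries it was -0.83 over 16 members, and with the covariate -0.61. In 13 of 17 members every 1 dpa library lay below every 0 dpa library, as it did in 26.9% of all genes tested. Because the samples are bulk tissue, fewer cells of a type and less RNA per cell cannot be told apart here or in any result that follows.

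In KO fins, 4 of 17 members were lower at 1 than at 0 dpa and none was higher, where 13.9% of all genes were called lower and 15.4% higher. They were hoxb10a, hoxb13a, hoxc3a and hoxc10a. The count was 5 without the low-share libraries, which leaves 2 KO libraries at each of these times, and 5 with the share covariate. It was 2 without replicate 2 at 0 dpa or replicate 2 or 3 at 1 dpa, 7 without replicate 1 at 1 dpa and 1 with both groups fitted alone. The median log2 change of the 17 was -0.63, compared with -0.03 over all genes, and it was -0.70 without the low-share libraries and -0.50 with the covariate. In 5 of 17 members every 1 dpa library lay below every 0 dpa library, compared with 18.8% of all genes. The difference between the genotypes in the change from 0 to 1 dpa, tested as an interaction in limma, was called for none of the 17 members, for none (0%) of all genes and at an unadjusted p under 0.05 for 0 members. edgeR and DESeq2 also called 0 members.

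At 4 dpa, 6 of 17 members were below the 0 dpa level in WT and none was above it, where 29.6% of all genes were called lower and 25.9% higher. The 6 became 2 without the low-share libraries or without replicate 3 at 4 dpa, 3 without replicate 2 at 0 dpa, and 2 lower and 1 higher with the covariate. The 6 were 5 of the 6 in cluster C (hoxc3a, hoxc10a, hoxc11b, HOXC12 and HOXC13) and hoxb7a of cluster B. No member of cluster D was called. In KO, 4 members were lower (hoxb7a, hoxc3a, HOXC6 and hoxc10a) and 1 was higher (hoxb9a), where 25.7% of all genes were called lower and 23.3% higher. These 5 calls became 3 without the low-share libraries or without replicate 2 or 3 at 0 dpa or replicate 1 at 4 dpa, and 2 without replicate 2 at 4 dpa. With the covariate, hoxc3a and hoxc10a were called lower in KO, and hoxb9a and HOXC13 higher. In the main fit the counts of members called lower at 4 dpa lay near the percents over all genes in both genotypes. They do not set the members apart from all genes. The medians of the 17 log2 changes were -0.78 in WT and -0.32 in KO, beside -0.03 and -0.02 over all genes. Without the low-share libraries they were -0.20 in WT and 0.03 in KO, and with the covariate, which is confounded with time here, both turned to 0.11. Groups that did not overlap were found for 8 lower members in WT (30.5% of all genes) and for 5 lower and 1 higher members in KO (31.2% and 28.7%). The 1 dpa and 4 dpa comparisons of a genotype share their 0 dpa libraries. The interaction of genotype with the change from 0 to 4 dpa was called for 0 members and 0 genes (0%) in limma, with 0 members at an unadjusted p under 0.05 and 0 called by edgeR or DESeq2.

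**Figure D2:**
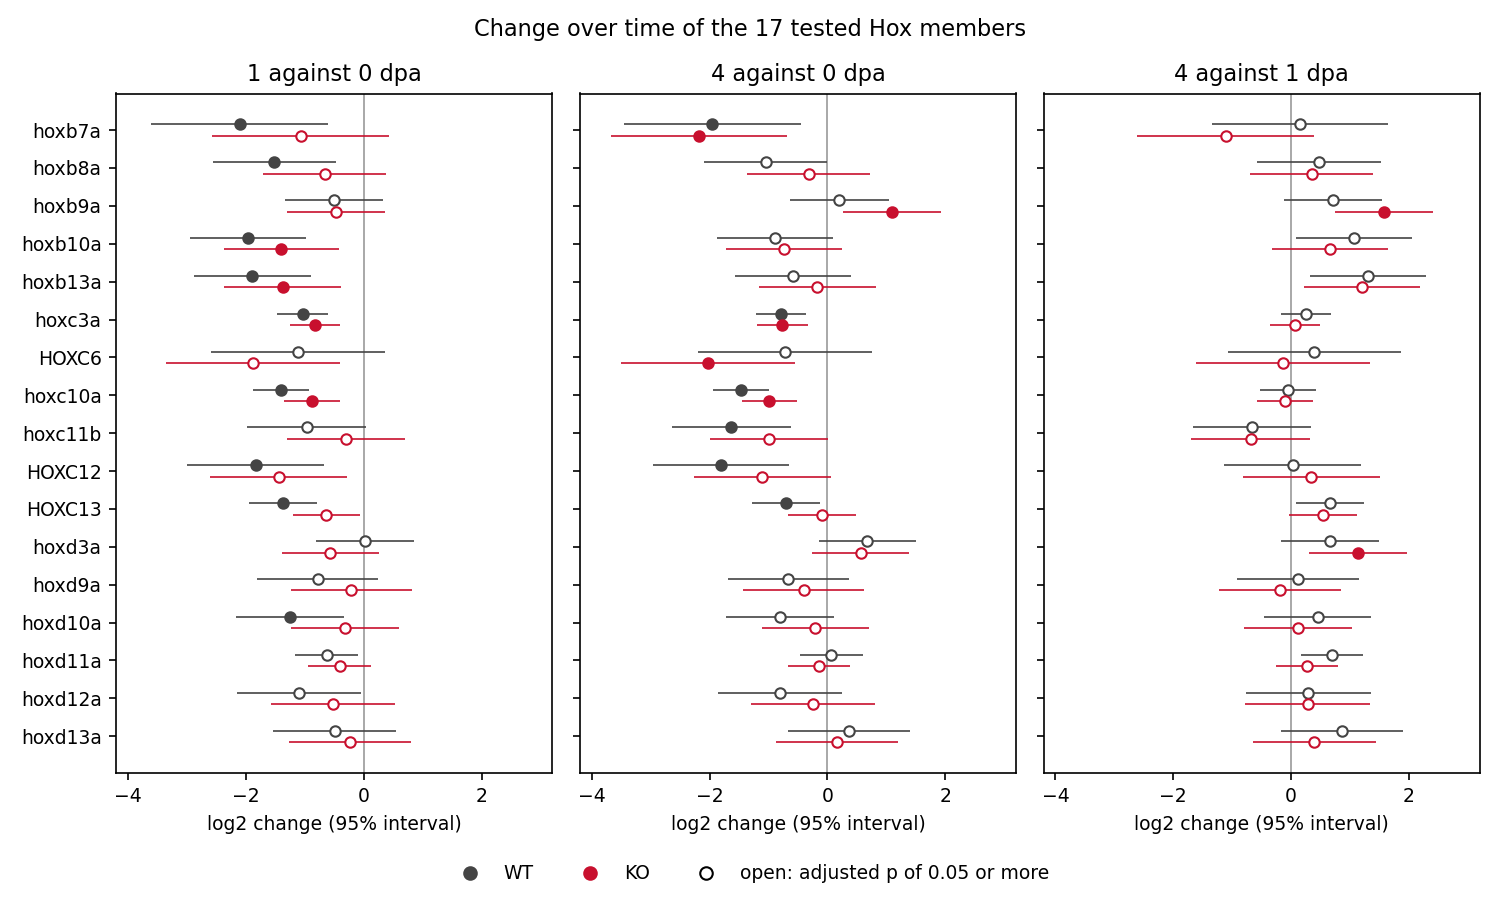
Points are log2 changes of the 17 tested members with 95% intervals from the limma fit, for 1 against 0 dpa, 4 against 0 dpa and 4 against 1 dpa (WT grey, KO red); filled points have an adjusted p under 0.05. Filled points at 1 against 0 dpa all lie below 0, and those of hoxc3a and hoxc10a are filled in both genotypes at 1 and at 4 dpa.

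The 2 members called in each of the 4 comparisons with 0 dpa were hoxc10a and hoxc3a. hoxc10a is the C-cluster gene of group 10, whose mouse counterparts pattern the lumbar region and hindlimb. In WT its normalised read counts (replicates 1 to 3) were 4212, 5797 and 5154 at 0 dpa, 2047, 1861 and 1772 at 1 dpa and 1924, 1963 and 1585 at 4 dpa. The KO values were 3185, 4930.1 and 2955 at 0 dpa, 2731, 1772 and 1533 at 1 dpa and 2003, 1708 and 1742 at 4 dpa. In both genotypes all 0 dpa libraries lay above all later ones, and the 1 and 4 dpa libraries overlapped. The log2 change in WT was -1.41 ± 0.22 (SE; adjusted p = 1.79e-04, limma) at 1 dpa and -1.46 ± 0.22 (adjusted p = 7.55e-05) at 4 dpa, a level about 2.65-fold and 2.76-fold lower. In KO it was -0.88 ± 0.22 (adjusted p = 0.00694, limma) at 1 dpa and -0.99 ± 0.22 (adjusted p = 0.00183) at 4 dpa. Without the low-share libraries the 4 changes were -1.16, -1.21, -0.90 and -0.76, and with the share covariate -0.88, -0.86, -0.67 and -0.60, all still called. The KO change at 1 dpa was not called when KO at 0 and 1 dpa were fitted alone (adjusted p = 0.104).

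hoxc3a is a C-cluster gene that mammals lack, and it is described here in full because of its values, not by the rule for named genes. In WT its normalised read counts were 375, 415 and 335 at 0 dpa, 178, 189.9 and 177 at 1 dpa and 269.6, 209 and 181 at 4 dpa. KO libraries had 392, 309.8 and 293 at 0 dpa, 191, 199.8 and 166 at 1 dpa and 253, 153 and 187 at 4 dpa. All 0 dpa libraries again lay above all later ones in both genotypes. The log2 changes were -1.04 ± 0.20 (adjusted p = 9.47e-04, limma) and -0.78 ± 0.20 (adjusted p = 0.00383) at 1 and 4 dpa in WT. They were -0.83 ± 0.20 (adjusted p = 0.00551, limma) and -0.76 ± 0.20 (adjusted p = 0.00529) in KO. Unlike hoxc10a, hoxc3a was not higher in the low-share libraries throughout: the low-share KO library at 0 dpa had 309.8, between 293 and 392 in the other 2. In GRCz12tu hoxc3a overlaps hoxc4a, hoxc5a, hoxc8a and hoxc9a, all listed at 0. How reads shared with those genes were assigned is not known, and whether they entered or left its values was not tested.

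**Figure D3:**
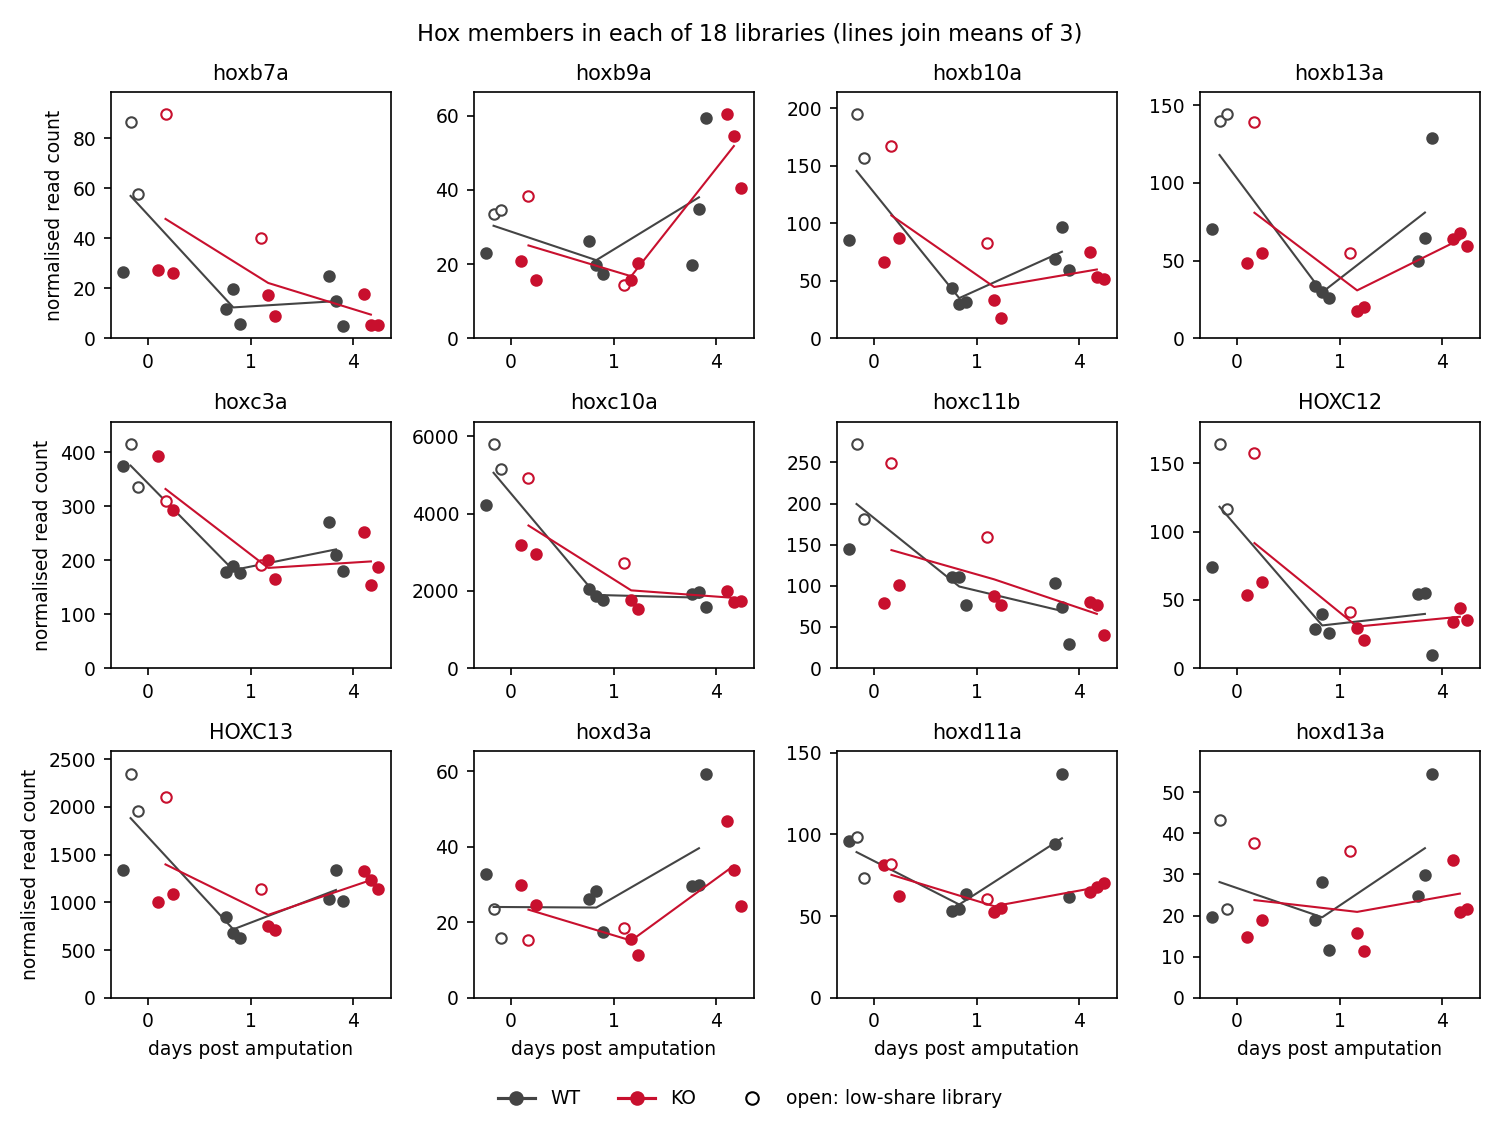
Normalised read counts (vertical axes, from 0) of 12 members in each library by days post amputation (horizontal axes), WT grey and KO red, with lines joining the means of 3 libraries and open symbols for the 4 low-share libraries. hoxc10a and hoxc3a are highest at 0 dpa in both genotypes, hoxb13a, hoxb10a and HOXC13 have their lowest means at 1 dpa, and the open symbols are mostly the highest of their group.

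Group 13 genes are the most posterior and distal of the Hox code. HOXC13, a gene of skin appendages such as hair and nails in mammals, was the group 13 member with the most reads. Its normalised read counts in WT were 1339, 2346 and 1961 at 0 dpa, 849, 682 and 622 at 1 dpa and 1036, 1343 and 1009 at 4 dpa. KO fins gave 1006, 2103 and 1083 at 0 dpa, 1135, 756 and 715 at 1 dpa and 1324, 1235 and 1140.4 at 4 dpa. In WT every 1 dpa library lay below every 0 dpa and every 4 dpa library, and in KO every 1 dpa library lay below every 4 dpa library while 0 and 1 dpa overlapped. The log2 change at 1 dpa was -1.36 ± 0.27 in WT (adjusted p = 0.00116, limma) and -0.63 ± 0.27 in KO (adjusted p = 0.0918). At 4 dpa it was -0.71 ± 0.27 in WT (adjusted p = 0.0358, limma) and -0.10 ± 0.27 in KO (adjusted p = 0.79). The WT call at 4 dpa ended without the low-share libraries (-0.26, adjusted p = 0.323) and its sign turned with the share of the 5 dominant genes as a covariate (0.11, adjusted p = 0.662). The WT call at 4 dpa also ended without replicate 2 or 3 at 0 dpa or replicate 1 or 3 at 4 dpa (adjusted p = 0.0917 to 0.155). In KO, HOXC13 was called higher at 4 than at 0 dpa with the covariate. It was called lower in KO at 1 than at 0 dpa both with the covariate and without the low-share libraries. The WT change at 1 dpa was -0.91 without the low-share libraries, where WT at 0 dpa rests on 1 library. With the covariate it was -0.64 and still called (adjusted p = 0.0049, limma).

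hoxb13a, the B-cluster gene of group 13, marks posterior tissue such as the tail. In WT it had normalised read counts of 70.3, 139.5 and 144 at 0 dpa, 33.4, 29.6 and 26.1 at 1 dpa and 49.5, 64.8 and 129 at 4 dpa. The KO libraries gave 48.3, 139 and 54.7 at 0 dpa, 54.9, 17.4 and 20.3 at 1 dpa and 63.7, 67.5 and 59.5 at 4 dpa. All 1 dpa libraries lay below all 4 dpa libraries in both genotypes, and below all 0 dpa libraries in WT, while in KO the low-share 1 dpa library (54.9) overlapped 0 dpa. The log2 change at 1 dpa was -1.89 ± 0.47 in WT (adjusted p = 0.00497, limma) and -1.38 ± 0.47 in KO (adjusted p = 0.0355), or 3.71-fold and 2.60-fold lower. The WT call ended with the share covariate (-0.72, adjusted p = 0.154). Without the low-share libraries the WT change was -1.22 (adjusted p = 0.0591), which ends the call, and the KO change was -1.40 (adjusted p = 0.01). The KO call ended without replicate 2 at 0 dpa (-0.90, adjusted p = 0.174) or replicate 2 or 3 at 1 dpa (adjusted p = 0.156 and 0.126). At 4 dpa the difference from 0 dpa was -0.59 ± 0.47 in WT (adjusted p = 0.299, limma) and -0.17 ± 0.47 in KO (adjusted p = 0.784).

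hoxd13a, the D-cluster member of the same group, showed no called change in the limma fit without a covariate. Its normalised read counts in WT were 19.5, 43.2 and 21.6 at 0 dpa, 18.9, 28.2 and 11.6 at 1 dpa and 24.7, 29.9 and 54.4 at 4 dpa. Values in KO were 14.8, 37.5 and 18.9 at 0 dpa, 35.7, 15.7 and 11.3 at 1 dpa and 33.5, 20.8 and 21.6 at 4 dpa. The groups overlapped in each comparison of times and genotypes. The log2 change at 1 dpa was -0.50 with a 95% interval of -1.54 to 0.54 in WT and -0.23 with an interval of -1.27 to 0.81 in KO, so a fall of the size seen for HOXC13 in WT lies inside the WT interval. With the share covariate, hoxd13a was called higher in WT at 4 than at 0 dpa (log2 change 1.49). The other group 13 members, hoxa13a, hoxa13b and the second HOXC13 ID, were listed at 0.

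hoxb10a belongs to group 10 and has no mammalian counterpart in cluster B. Its normalised read counts in WT were 85.6, 195 and 156 at 0 dpa, 43.6, 29.6 and 31.9 at 1 dpa and 69.3, 97.2 and 59.4 at 4 dpa. In KO they were 66.1, 167 and 86.8 at 0 dpa, 82.8, 33.1 and 18.01 at 1 dpa and 74.9, 53.3 and 51.4 at 4 dpa. In WT all 1 dpa libraries lay below both other times, whereas in KO the low-share 1 dpa library, at 82.8, overlapped both. The log2 change at 1 dpa was -1.96 ± 0.46 in WT (adjusted p = 0.00374, limma), 3.90-fold lower, and -1.40 ± 0.46 in KO (adjusted p = 0.0322). Without the low-share libraries both stayed called, at -1.29 (adjusted p = 0.0396) and -1.59 (adjusted p = 0.0034), whereas with the share covariate the WT call ended (-0.82, adjusted p = 0.104). The KO call ended without replicate 2 (-1.02, adjusted p = 0.143) or 3 at 0 dpa or replicate 2 or 3 (-0.90, adjusted p = 0.175) at 1 dpa, and in edgeR (adjusted p = 0.0559). Neither genotype was called at 4 against 0 dpa (-0.89, adjusted p = 0.112, in WT and -0.73, adjusted p = 0.204, in KO, limma).

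HOXC12 and hoxc11b belong to the paralogue groups next to group 13, which are posterior in the body and distal in the limb. HOXC12 had normalised read counts in WT of 73.8, 164 and 117 at 0 dpa, 28.3, 39.4 and 26.1 at 1 dpa and 54.4, 54.8 and 9.89 at 4 dpa. The KO values were 53.9, 158 and 63.1 at 0 dpa, 41.4, 29.7 and 20.3 at 1 dpa and 33.5, 44.2 and 35.2 at 4 dpa. All later libraries lay below all 0 dpa libraries in both genotypes, and the 1 and 4 dpa libraries overlapped. In WT the log2 change was -1.83 ± 0.55 (adjusted p = 0.0147, limma) at 1 dpa and -1.81 ± 0.55 (adjusted p = 0.0104) at 4 dpa. In KO it was -1.45 ± 0.55 (adjusted p = 0.057, limma) and -1.10 ± 0.55 (adjusted p = 0.106). Both WT calls ended without the low-share libraries (-1.24, adjusted p = 0.233, and -1.21, adjusted p = 0.19). They also ended without replicate 2 at 0 dpa (adjusted p = 0.0716 and 0.0515). The 1 dpa call ended without replicate 3 at 1 dpa (adjusted p = 0.0523) and the 4 dpa call without replicate 3 at 4 dpa (-1.03, adjusted p = 0.0644). Both WT calls ended with the share covariate too (-0.87, adjusted p = 0.285, and -0.72, adjusted p = 0.373, limma).

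hoxc11b had normalised read counts in WT of 145, 272 and 182 at 0 dpa, 110.3, 110.4 and 76.8 at 1 dpa and 104, 74.7 and 29.7 at 4 dpa. KO libraries had 79.6, 249 and 102 at 0 dpa, 159.8, 87.2 and 76.6 at 1 dpa and 80.5, 76.6 and 40.6 at 4 dpa. In WT all 1 and 4 dpa libraries lay below all 0 dpa libraries, and in KO the groups overlapped. The change at 1 dpa was -0.97 ± 0.48 in WT (adjusted p = 0.114, limma) and -0.30 ± 0.48 in KO (adjusted p = 0.672). At 4 dpa the log2 change was -1.63 ± 0.48 in WT (adjusted p = 0.00844, limma) and -0.99 ± 0.48 in KO (adjusted p = 0.0952). Without the low-share libraries the WT change at 4 dpa was -1.22 (adjusted p = 0.0872), and without replicate 3 at 4 dpa it was -1.12 (adjusted p = 0.057). With the share covariate it was -0.53 (adjusted p = 0.406).

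hoxb7a, of a central paralogue group that patterns the trunk, and hoxb9a, of a posterior one, are both members of cluster B. hoxb7a had normalised read counts in WT of 26.6, 86.5 and 57.6 at 0 dpa, 11.6, 19.7 and 5.80 at 1 dpa and 24.7, 14.9 and 4.95 at 4 dpa. KO fins gave 27.4, 89.5 and 26.3 at 0 dpa, 40.0, 17.4 and 9.01 at 1 dpa and 17.9, 5.20 and 5.41 at 4 dpa. WT libraries at 1 and 4 dpa all lay below those at 0 dpa, and in KO this held at 4 dpa. The log2 change was -2.11 ± 0.71 at 1 dpa and -1.95 ± 0.71 at 4 dpa in WT (adjusted p = 0.0267 and 0.0276, limma). In KO it was -1.07 ± 0.71 at 1 dpa and -2.18 ± 0.71 at 4 dpa (adjusted p = 0.278 and 0.0178, limma). None of these calls held without the low-share libraries (adjusted p = 0.39 and 0.395 in WT and 0.0736 in KO at 4 dpa). Leaving out single libraries ended them too, at adjusted p = 0.0578 to 0.118 for WT at 1 dpa (replicates 2 and 3 at 0 dpa and 1 and 3 at 1 dpa). For WT at 4 dpa this held for replicates 2 and 3 at 0 dpa and 3 at 4 dpa (0.0736 to 0.138). For KO it held for replicate 2 at 0 dpa and 2 and 3 at 4 dpa (0.0666 to 0.0982). The share covariate ended each of these calls as well. The changes were then -0.65 and -0.31 in WT at 1 and 4 dpa (adjusted p = 0.539 and 0.774, limma). In KO at 4 dpa the change was -1.11 (adjusted p = 0.161).

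hoxb9a was the only tested member called higher than at 0 dpa in the main limma fit (all 18 libraries, no covariate). With the share covariate, hoxd13a in WT and HOXC13 in KO were also called higher at 4 dpa. Normalised read counts of hoxb9a in WT were 23.0, 33.4 and 34.6 at 0 dpa, 26.1, 19.7 and 17.4 at 1 dpa and 19.8, 34.9 and 59.4 at 4 dpa. The KO libraries gave 20.9, 38.5 and 15.8 at 0 dpa, 14.3, 15.7 and 20.3 at 1 dpa and 60.4, 54.6 and 40.6 at 4 dpa. The KO libraries at 4 dpa lay above all KO libraries of both earlier times, whereas WT libraries at 4 dpa ranged from below to above those at 0 dpa. In KO the log2 change was 1.097 ± 0.39 (adjusted p = 0.0295, limma) at 4 against 0 dpa and 1.57 ± 0.39 (adjusted p = 0.00854) at 4 against 1 dpa, a 2.97-fold rise. In WT these changes were 0.20 ± 0.39 (adjusted p = 0.679, limma) and 0.71 ± 0.39 (adjusted p = 0.237). The difference between genotypes in the change from 0 to 4 dpa was 0.89 with a 95% interval of -0.28 to 2.07 (adjusted p = 0.992, limma), so the KO rise is not shown to differ from WT. Both KO calls held without the low-share libraries (1.44 and 1.47). The call at 4 against 0 dpa ended without replicate 1 or 3 at 0 dpa or replicate 1 or 2 at 4 dpa (adjusted p = 0.0723 to 0.13).

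HOXC6, a C-cluster gene of the trunk and pectoral region, was the tested member with the fewest reads. Its normalised read counts in WT were 9.38, 7.86 and 13.7 at 0 dpa, 4.36, 2.63 and 5.80 at 1 dpa and 4.95, 4.98 and 7.42 at 4 dpa. Values in KO were 13.04, 13.5 and 14.7 at 0 dpa, 9.28, 5.23 and 0 at 1 dpa and 2.24, 1.30 and 5.41 at 4 dpa. All later libraries lay below all 0 dpa libraries in both genotypes. The KO change at 4 dpa was called (-2.02 ± 0.70, adjusted p = 0.0243, limma), while the WT change was -0.72 ± 0.70 (adjusted p = 0.39). The 3 KO libraries at 4 dpa rest on 2, 1 and 4 reads, and without the low-share libraries HOXC6 no longer passed the filter. HOXC6 passed it only through 0 dpa libraries, replicate 3 of WT and all of KO. A fall from 0 dpa was therefore favoured by the filter, and the call is no support for one. The call also ended without replicate 2 or 3 at 0 dpa or replicate 1 or 2 at 4 dpa (adjusted p = 0.0592 to 0.0916). The share covariate ended it as well (-1.65, adjusted p = 0.119, limma). hoxb8a, with signals of 3.94 to 23.6, was called lower at 1 dpa in WT (-1.52 ± 0.49, adjusted p = 0.0228, limma), a call that ended without the low-share libraries (adjusted p = 0.35). It also ended without replicate 2 or 3 at 0 dpa or replicate 1 or 2 at 1 dpa (adjusted p = 0.0546 to 0.0905). The share covariate ended it as well (-1.30, adjusted p = 0.164, limma). In KO its change was -0.67 ± 0.49 (adjusted p = 0.34, limma), and the interaction was 0.85 (adjusted p = 0.795).

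Of the 3 cluster letters with tested members, D had the smallest median changes from 0 dpa: the median log2 change of its 6 tested genes was -0.70 at 1 dpa and -0.30 at 4 dpa in WT, and -0.37 and -0.17 in KO. In cluster B the same medians were -1.89 and -0.89 in WT and -1.07 and -0.32 in KO. In cluster C they were -1.24 and -1.12 in WT and -0.85 and -0.99 in KO. The difference between clusters was not tested. These medians by cluster were taken only in the main fit, with the low-share libraries included, so the order is not shown to hold without them. Within cluster D, hoxd11a, which helps pattern the middle segment of the limb in mouse, had the highest mean signal. In WT its normalised read counts were 95.7, 98.3 and 73.5 at 0 dpa, 53.0, 54.5 and 63.7 at 1 dpa and 94.0, 137 and 61.8 at 4 dpa. In KO they were 81.3, 81.8 and 62.6 at 0 dpa, 60.7, 52.3 and 55.2 at 1 dpa and 64.8, 67.5 and 70.3 at 4 dpa. All 1 dpa libraries lay below all 0 dpa libraries in both genotypes, yet the change of -0.63 ± 0.25 in WT (adjusted p = 0.0568, limma) and of -0.41 ± 0.25 in KO (adjusted p = 0.241) was not called.

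hoxd10a was the D-cluster member called lower at 1 dpa in WT (-1.25 ± 0.43, adjusted p = 0.0296, limma), and this call ended without the low-share libraries (-0.64, adjusted p = 0.333) or without replicate 2 or 3 at 0 dpa or replicate 1 or 3 at 1 dpa (adjusted p = 0.0502 to 0.138). The hoxd10a call also ended with the share covariate (-0.21, adjusted p = 0.719, limma). hoxd9a, hoxd11a, hoxd12a and hoxd13a were called in no comparison of times or genotypes in the main limma fit. With the share covariate, hoxd11a was called higher in WT at 4 than at 1 dpa, and hoxd13a at 4 than at 0 dpa. hoxd3a, the anterior member of cluster D, is given here because of its values. Its normalised read counts in WT were 32.8, 23.6 and 15.9 at 0 dpa, 26.1, 28.2 and 17.4 at 1 dpa and 29.7, 29.9 and 59.4 at 4 dpa. The KO values were 30.0, 15.4 and 24.7 at 0 dpa, 18.6, 15.7 and 11.3 at 1 dpa and 46.9, 33.8 and 24.3 at 4 dpa. The 4 dpa libraries lay above all 1 dpa libraries in both genotypes, while 0 and 4 dpa overlapped. The rise from 1 to 4 dpa was called in KO (1.13 ± 0.39, adjusted p = 0.0403, limma) and not in WT (0.66 ± 0.39, adjusted p = 0.27). The KO call held under 8 of 16 alternative settings and ended without any 1 library at 1 dpa and without replicate 1 or 2 at 4 dpa (adjusted p = 0.0636 to 0.148). In GRCz12tu hoxd3a overlaps hoxd4a, which was listed at 0.

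From 1 to 4 dpa the main limma fit called no member in WT, where 13.8% of all genes were called. In WT, 4 members had an unadjusted p under 0.05, the lowest adjusted p being 0.0729 for hoxb13a (1.31 ± 0.47), and DESeq2 called 2 members and edgeR 0. The other 3 were hoxd11a (0.70), hoxb10a (1.07) and HOXC13 (0.65). For 4 members (hoxb10a, hoxb13a, HOXC13 and hoxd3a) every WT library at 4 dpa lay above every one at 1 dpa, compared with 19.9% of all genes. In KO, the main limma fit called hoxb9a and hoxd3a higher and no member lower (11.6% and 16.2% of all genes). There, 5 members had all 4 dpa libraries above all 1 dpa libraries (hoxb9a, hoxb13a, HOXC13, hoxd3a and hoxd11a), compared with 22.5% of all genes. hoxc10a, hoxc3a and HOXC12 had log2 changes from 1 to 4 dpa of -0.06, 0.26 and 0.02 in WT and -0.11, 0.06 and 0.34 in KO.

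Leaving out the 4 low-share libraries changed which of these calls were made. WT at 0 dpa then rests on 1 library, whose spread is taken to be that of the other groups. The percent of all genes called was not taken in this setting or with the covariate. Whether the members differ from all genes there is therefore not shown. From 0 to 1 dpa, 4 members were then called lower in WT (hoxb10a, hoxc3a, hoxc10a and HOXC13) and 5 in KO (the same 4 and hoxb13a). From 0 to 4 dpa, hoxc3a and hoxc10a were called lower in both genotypes and hoxb9a higher in KO. From 1 to 4 dpa, hoxb10a, hoxb13a and HOXC13 were called higher in both genotypes, with log2 changes of 1.07, 1.31 and 0.65 in WT and 1.23, 1.70 and 0.74 in KO, and hoxb9a and hoxd3a in KO as well. All WT libraries at 1 and 4 dpa were kept, so these WT changes equal those of the main fit. For them only the shared estimate of the spread and the set of tested genes differed. With the share of the 5 dominant genes as a covariate in all 18 libraries, hoxb10a, hoxb13a and HOXC13 were also called higher from 1 to 4 dpa in both genotypes. So were hoxd11a in WT and hoxb9a in KO.

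The low-share libraries were the highest of their group for most members. At 0 dpa, 13 of 17 members were higher in both low-share WT libraries than in the other, and 13 of 17 were higher in the low-share KO library than in the other 2. At 1 dpa this held for 15 of 17 members in KO. Over all genes tested the shares were 46.4%, 45.8% and 43.6%. The median log2 excess of the low-share libraries was 0.62, 1.12 and 0.94 for the members, compared with 0.06, 0.05 and 0.03 over all genes. The part of this in the time changes was not tested beyond the settings above, and no library of WT at 1 dpa or of either genotype at 4 dpa had a low share.

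**Figure D4:**
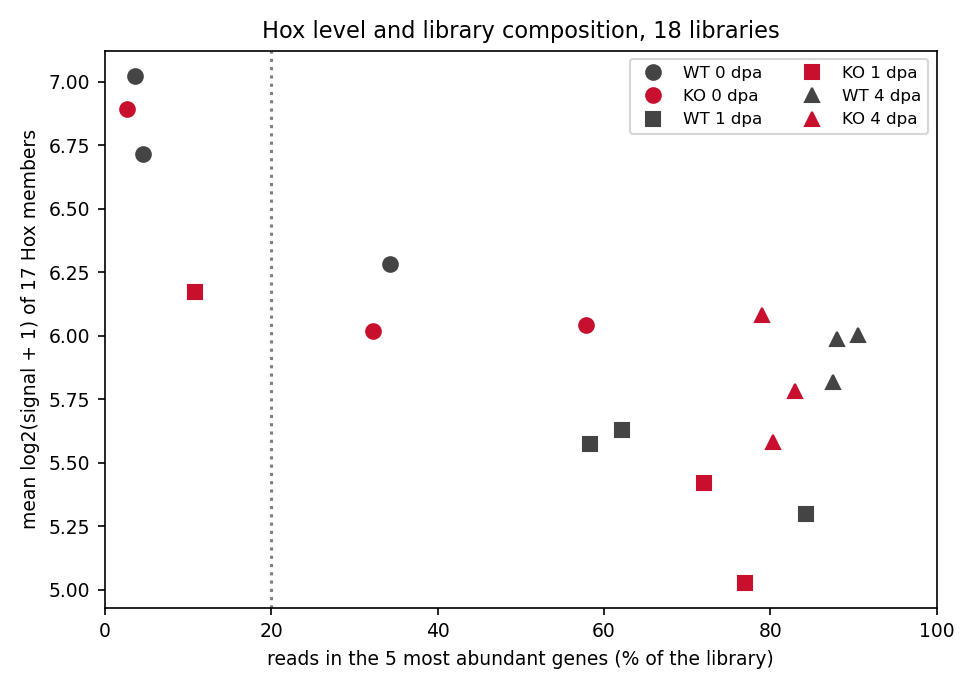
Each point is 1 of 18 libraries, placed by the percent of its reads in the 5 most abundant genes (horizontal axis) and the mean log2(signal + 1) of the 17 tested members (vertical axis); circles are 0 dpa, squares 1 dpa and triangles 4 dpa, WT grey and KO red. The 4 libraries left of the dotted line at 20% are the highest of their groups, at 6.17 to 7.02, and the other 1 dpa libraries lie at 5.03 to 5.63, a range that 1 KO library of 4 dpa (5.58) falls within.

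Loss of s1 was not accompanied by a called change of any of the 17 tested Hox members. Members listed at 0 or below the filter, all of cluster A among them, could not be compared. limma called 0 of 17 members between KO and WT at 0, 1 and 4 dpa and over the average of the times, where 0.101%, 0.00439%, 0.0351% and 0.14% of all genes were called. edgeR and DESeq2 called 0 members in each of the 4 comparisons, and the members with an unadjusted p under 0.05 numbered 1, 0, 0 and 0. That member was hoxc10a at 0 dpa, with a mean of 3690.0 ± 1080.1 in KO and 5054 ± 797 in WT (SD, n = 3) and a log2 difference of -0.48 (95% interval -0.95 to -0.01, adjusted p = 0.912). No member's KO and WT libraries were separate at any time. Of all genes, 7.14%, 8.45% and 11% were separate at 0, 1 and 4 dpa. With shares this small, having none among 17 members does not set them apart from all genes.

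At 0 dpa 16 of 17 log2 differences were below 0 in KO, with a median of -0.44 compared with -0.02 over all genes, of which 52.4% lay below 0. The exception was HOXC6 (0.41). The low-share libraries are unequal here, with 2 in WT and 1 in KO. Without them 15 of 16 differences were below 0 with a median of -0.30, and with the share covariate 14 of 17 with a median of -0.19. Members are not independent of each other, and the direction carries no test. At 1 dpa 6 of 17 differences were below 0 (median 0.05), and at 4 dpa 10 of 17 (median -0.15). Share and depth also differed by genotype at 4 dpa, so their part there cannot be told apart from that of genotype.

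The precision of these comparisons differs by member. For hoxc3a the 95% interval of KO against WT was -0.61 to 0.24 at 0 dpa, -0.40 to 0.45 at 1 dpa and -0.59 to 0.26 at 4 dpa, on the log2 scale. For HOXC13 the intervals were -1.05 to 0.10, -0.32 to 0.83 and -0.44 to 0.71. For hoxb7a, one of the least even members, they were -1.83 to 1.16, -0.80 to 2.19 and -2.06 to 0.93, so that a 2-fold difference in at least 1 direction lies inside each. Over the average of the times, differences ranged from -0.33 (hoxb13a) to 0.12 (hoxb8a).

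Genes that act with or on Hox genes were counted from lists chosen with earlier results of these data known. Their counts stand beside 19.1% higher and 21.1% lower of all genes at 1 dpa and 25.9% and 29.6% at 4 dpa in WT, and 15.4% and 13.9% and then 23.3% and 25.7% in KO. TALE homeodomain proteins (Meis, Pbx and Pknox) bind DNA together with Hox proteins. Of 14 tested, 3 were higher and 2 lower at 1 dpa and 5 higher and 2 lower at 4 dpa in WT, with 2 and 3 and then 5 and 2 in KO. meis1a fell in all 4 comparisons with 0 dpa (log2 changes of -0.90, -0.80, -1.10 and -1.05 for WT at 1 and 4 dpa and KO at 1 and 4 dpa). pbx4 rose at 4 dpa by 1.48 in WT and 1.46 in KO. pbx1a fell at 1 dpa by 1.09 in WT and 1.05 in KO on the log2 scale. Over the 14 TALE genes the median log2 changes at 1 and 4 dpa were 0.17 and 0.41 for WT, and -0.10 and 0.01 for KO.

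Retinoic acid is an upstream signal of Hox transcription. ALDH1A2, the enzyme that makes it, rose in all 4 comparisons with 0 dpa (2.10 and 1.13 in WT, 2.11 and 0.60 in KO), from a mean of 114 in WT at 0 dpa to 488 at 1 dpa. CYP26B1, which degrades retinoic acid, rose as well (1.44 and 2.65 in WT, 1.22 and 2.85 in KO). The retinoic acid binding protein CRABP1 (ENSDARG00000035904) fell at 4 dpa (-3.70 in WT, -3.87 in KO). Of the 17 tested genes of this list, 4 were higher and 3 lower at 1 dpa and 7 and 2 at 4 dpa in WT, and 4 and 3 and then 9 and 2 in KO. The list medians were 0.27 and 0.38 in WT and -0.15 and 0.60 in KO.

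Polycomb and Trithorax proteins keep Hox clusters silent or active. Of 27 tested genes of these complexes and CTCF, a boundary protein of the clusters, 9 were higher and 2 lower at 1 dpa and 12 and 5 at 4 dpa in WT, and 9 and 1 and then 12 and 4 in KO. CTCF rose in all 4 comparisons (1.55 and 2.09 in WT, 1.22 and 1.94 in KO), as did phc2a, a Polycomb gene (1.46 and 1.08 in WT, 1.75 and 1.34 in KO). The Polycomb gene CBX8 (ENSDARG00000098771) fell in all 4 (-1.62 and -2.29 in WT, -1.01 and -2.10 in KO). The list medians were 0.29 and 0.41 in WT and 0.44 and 0.45 in KO.

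Genes flanking the clusters share their chromosomal setting, and evx1 and evx2 among them are homeobox genes as well. Of 19 IDs, 6 were at 0 in all libraries, among them evx1, and 12 were tested. Of those 2 were higher and 3 lower at 1 dpa and 2 and 7 at 4 dpa in WT, and 1 and 3 and then 1 and 4 in KO, with medians of -0.37 and -0.76 in WT and 0.03 and -0.49 in KO. Over all genes 21.1% and 29.6% were lower in WT and 13.9% and 25.7% in KO. CALCOCO1 (ENSDARG00000016391), near cluster C, fell in all 4 comparisons (-2.93 and -3.44 in WT, -2.73 and -2.72 in KO). MTX2, near cluster D, fell at 4 dpa by 1.82 in WT and 1.45 in KO on the log2 scale. Another list, which shares evx1 and evx2 with the flanking genes, held Hox-linked and ParaHox homeobox genes, of which 5 were tested. In WT 1 was higher and 1 lower at 1 dpa and 2 and 1 at 4 dpa, and in KO 0 and 0 and then 2 and 0. Their medians at 4 dpa were -0.12 in WT and 0.61 in KO. eve1, a gene of this list linked to cluster B in fish, rose at 4 dpa (1.80 in WT, 1.63 in KO), while its neighbour hoxb13a was not called there.

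Partners of posterior Hox genes in fin and limb outgrowth were counted last. At 4 dpa 10 of 15 tested were higher and none lower in each genotype, beside 25.9% of all genes higher in WT and 23.3% in KO, with medians of 1.204 in WT and 1.61 in KO. At 1 dpa 4 were higher and 1 lower in WT and 5 and 0 in KO. LHX2, a homeobox gene of the distal limb, rose by 4.17 in WT and 3.82 in KO at 4 dpa. SHH, the signal of the posterior limb margin, rose by 2.53 in WT and 2.04 in KO (ENSDARG00000068567), from mean signals of 2.74 and 7.80 at 0 dpa. Of markers of fin fibroblasts and blastema mesenchyme, 4 of 11 were higher and 2 lower at 1 dpa and 9 and 1 at 4 dpa in WT, and 5 and 1 and then 10 and 0 in KO. PDGFRA, one of them, rose by 1.04 and 2.02 in WT and by 0.77 and 2.30 in KO at 1 and 4 dpa. The summed signal of the 11 markers, none of which was at 0 throughout, was 54192 to 77851 at 0 dpa, 55038 to 63404 at 1 dpa and 146181 to 173932 at 4 dpa in WT. It was 43187 to 63680.2, 43905 to 49852 and 161170 to 178725 in KO. Markers of fin ray osteoblasts were lower at 1 dpa: 3 of 5 tested were called lower and 1 higher in each genotype, with a median log2 change of -0.81 in both, and at 4 dpa 3 in WT and 4 in KO were higher and none lower. The summed signal of the 7 osteoblast IDs, of which bglap and 1 of the COL10A1 IDs were at 0, was 18966 to 32707 at 0 dpa, 11398 to 12402 at 1 dpa and 32544 to 39616 at 4 dpa in WT. In KO it was 15898 to 30824, 10078 to 12507 and 40997 to 49856. Of 7 tested nerve and Schwann cell markers none was called at 1 dpa in WT and 1 was lower in KO, with medians of -0.53 and -0.45, and at 4 dpa 1 was higher and 2 lower in WT and 1 and 3 in KO. Their summed signal over 9 IDs, with nefma at 0, was 854 to 1380 at 0 dpa, 394 to 562 at 1 dpa and 301 to 544 at 4 dpa in WT. In KO it was 831 to 1379, 446 to 515 and 325 to 444. The part of these cell types in the Hox values was not tested. At 0 dpa no gene of any of these lists was called between KO and WT.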

How the data were processed

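Caudal fin RNA of 18 pools (3 in each of 6 groups of genotype and time) was measured as bulk RNA-seq. Per the labels' protocols, cDNA was amplified, tagged with Tn5 and read as paired ends. Per the submitters' processing notes, Trim Galore 0.6.7, cutadapt 3.5 and STAR 2.7.10 were used with danRer11; how strand and overlapping genes were handled is not stated in them. The deposited signal behaves as reads over a library's size factor: multiplied back, 100% of values were whole to within 0.001.

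The 22779 genes that reached a signal of 10 in 3 or more libraries were tested on log2(signal + 1), a scale that understates the change of low genes, with limma 3.58.1 (trend; R 4.3.3), all 18 libraries sharing 1 estimate of the spread. Tests were two-sided, with p-values adjusted over all tested genes (Benjamini-Hochberg). On the recovered reads, edgeR 4.0.16 and DESeq2 1.42.0 were alternatives, beside other pseudocounts, no filter, TMM, a replicate block, each library left out, low-share libraries left out, the share as a covariate and groups fitted alone. Fits were tested on simulated data. Members and lists were chosen with earlier results of these data known. Values per library were given for members of group 13, the members with the largest called changes and the member with the highest mean signal in each letter; hoxc3a and hoxd3a were added after their values were seen. Sequences are not used here.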

Additional observations from a re-analysis of the deposited data

How the results depend on the processing

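The counts of Hox members called between KO and WT (each time and the average) and in both interactions were 0 under the alternatives run, single libraries left out included. For 1 against 0 dpa in WT, the count of 9 became 4 without the low-share libraries and 3 with the share covariate. For 4 against 0 dpa in WT, 6 became 2 and 3. For 4 against 1 dpa in WT, 0 became 1 with no filter, 2 in DESeq2, 3 without the low-share libraries, 4 with the covariate and 3 with groups fitted alone. In KO, 4 members at 1 against 0 dpa became 5 without the low-share libraries, 5 with the covariate and 1 with groups alone. The 5 at 4 against 0 dpa became 3 without the low-share libraries. For 4 against 1 dpa in KO, 2 became 1 with no filter, 5 without the low-share libraries, 4 with the covariate and 1 with groups alone. The causes were not tested.

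Leaving out 1 library gave 5 to 10 and 2 to 8 members for 1 and 4 against 0 dpa in WT, 0 to 1 for 4 against 1 dpa, and 2 to 7, 2 to 5 and 1 to 2 in KO. The count fell by over 1.5 times for 1 against 0 dpa in WT without WT replicate 2 at 0 dpa (5), and for 4 against 0 dpa without that library (3) or replicate 3 at 4 dpa (2). In KO it moved to 2 without replicate 2 at 0 dpa or replicate 2 or 3 at 1 dpa and to 7 without replicate 1 at 1 dpa (1 against 0 dpa). It moved to 3 without replicate 2 or 3 at 0 dpa or 1 at 4 dpa and to 2 without replicate 2 at 4 dpa (4 against 0 dpa). It moved to 1 in WT without replicate 3 at 4 dpa and in KO without replicate 2 or 3 at 1 dpa or 1 or 2 at 4 dpa (4 against 1 dpa).

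Of 415 recomputed changes of called members, 338 kept direction and call, 76 kept only the direction, and that of HOXC13 for WT at 4 against 0 dpa turned from -0.71 to 0.11 with the share covariate. HOXC6 gave no value without the low-share libraries, and the average of the times has no fit of groups alone. With the replicate block the counts were 9, 6 and 0 in WT, 4, 5 and 2 in KO and 0 elsewhere, and hoxb13a in KO at 1 against 0 dpa moved to an adjusted p of 0.0506. Replicate numbers did not pair the samples: same-numbered deviations correlated at -0.23 to 0.74 between genotypes and -0.61 to 0.25 between times, and 10 of 18 libraries correlated best with their own number in the other genotype. At WT 4 dpa 1 read is worth a signal of 2.47 to 2.49, so members near the filter rest on few reads there.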
